A study of Mus musculus with 194 samples.

Results

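The nucleus accumbens (NAc) of mice given a cocaine challenge after abstinence was followed over time by 3′-RNA-seq, which counts transcripts from their 3′ ends. The members are the NAc libraries of the challenge experience at 0, 1, 2 and 4 hr, chosen by the sample labels alone. They are 15 of the 37 NAc libraries of the series and come from 14 mice, because 1 mouse of the 0 hr group was sequenced in both runs and its counts were summed. The series measured 5 brain structures after acute, repeated and challenge cocaine.

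All 14 were male C57BL/6OLAHSD mice that arrived at 6 to 7 weeks of age. Each received 3 daily saline injections as habituation, then cocaine at 20 mg/kg intraperitoneally once a day for 5 days, and was left without drug for 21 days. The 4 mice each of the 1, 2 and 4 hr groups then received 1 further cocaine dose and were killed at that time. The 2 mice of the 0 hr group were abstinent animals taken from the home cage with no injection on that day, so the injection, the handling and the drug cannot be told apart. The tissue was bulk NAc, in which fewer cells of a type and less RNA per cell cannot be told apart either.

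Cocaine blocks the reuptake of dopamine, and dopamine acting on D1 receptors of spiny projection neurons in the NAc raises cAMP and drives kinase signalling to the nucleus. There it switches on immediate-early genes (IEGs), whose transcription needs no new protein. Many IEGs encode transcription factors of the Fos and Jun (AP-1), Egr, Nr4a and ATF families, others encode phosphatases and other inhibitors that end the signal, and further ones act at synapses. Their mRNAs rise and decay within hours.

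Library totals ran from 1769308 to 5676053 counted reads, and 9989188 for the summed mouse. The sequencing run labelled 0006 held 8 libraries (3043540 to 5676053 reads) and the other run held 7 (1769308 to 4313135). The 1, 2 and 4 hr groups each had 2 mice of either run. The run was a term in the fits reported here unless stated otherwise, and 672 of 12444 genes tested differed between runs at an adjusted p under 0.05 and a fold over 1.2. Of the 10 spiny projection neuron markers listed, 9 were tested. Their summed level was 6631 to 10508 CPM (counts scaled by the library total and its TMM factor) in the 14 mice. No other structure was compared, so this does not tell the NAc from the dorsal striatum, which holds such neurons too. Libraries of different mice differed by more than counting noise in every group, with chi-square values per degree of freedom of 2.00 to 6.79 (a value near 1 is counting noise alone). The 2 libraries of the summed mouse gave 3.69, close to the lowest of 13 values between different mice of different runs (3.70 to 6.79). For the same relative difference such a value rises with read depth, and these 2 libraries were the deepest. The values were not scaled for depth and so do not rank how alike the libraries are. That the 2 libraries are 1 mouse rests on their labels, and if they were not, the 0 hr group would hold 3 mice. The largest value within a run, 5.97, was between the 2 mice of the 0 hr group and includes the deepest library.

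Several of the genes described here carry the cAMP response element core TGACG in front of their start, and the windows of 6 of them are shown because these are the IEG transcription factors higher at 1 hr whose window holds it. They are the 250 bases before the start in RefSeq (GRCm38.p6), 5′ to 3′ on the strand of the gene, with TGACG in capitals, written CGTCA where it lies on the other strand. The positions are chr1:191183334-191183583 (minus strand) for Atf3, chr12:85473640-85473889 (plus) for Fos, chr7:19310046-19310295 (minus) for Fosb, chr6:85513590-85513839 (minus) for Egr4, chr4:48045055-48045304 (plus) for Nr4a3 and chr8:84978749-84978998 (minus) for Junb.
Atf3: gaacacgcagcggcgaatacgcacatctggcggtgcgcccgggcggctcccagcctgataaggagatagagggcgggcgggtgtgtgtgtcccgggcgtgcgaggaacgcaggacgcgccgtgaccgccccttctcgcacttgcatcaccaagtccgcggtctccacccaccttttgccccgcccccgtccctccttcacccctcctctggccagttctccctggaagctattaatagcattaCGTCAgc
Fos: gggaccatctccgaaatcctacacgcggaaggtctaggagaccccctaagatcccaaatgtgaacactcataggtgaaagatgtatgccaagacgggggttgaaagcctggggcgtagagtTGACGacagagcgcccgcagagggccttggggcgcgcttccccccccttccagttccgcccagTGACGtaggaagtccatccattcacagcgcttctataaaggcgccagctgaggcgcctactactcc
Fosb: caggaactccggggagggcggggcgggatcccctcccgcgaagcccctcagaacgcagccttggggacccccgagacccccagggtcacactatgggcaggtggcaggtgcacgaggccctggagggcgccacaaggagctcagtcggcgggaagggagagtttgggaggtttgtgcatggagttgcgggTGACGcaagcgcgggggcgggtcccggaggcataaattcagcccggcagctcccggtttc
Egr4: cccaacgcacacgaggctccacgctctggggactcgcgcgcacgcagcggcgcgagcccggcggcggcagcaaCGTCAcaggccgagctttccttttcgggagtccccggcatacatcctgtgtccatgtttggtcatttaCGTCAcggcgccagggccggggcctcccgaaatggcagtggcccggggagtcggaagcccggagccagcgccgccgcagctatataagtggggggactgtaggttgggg
Nr4a3: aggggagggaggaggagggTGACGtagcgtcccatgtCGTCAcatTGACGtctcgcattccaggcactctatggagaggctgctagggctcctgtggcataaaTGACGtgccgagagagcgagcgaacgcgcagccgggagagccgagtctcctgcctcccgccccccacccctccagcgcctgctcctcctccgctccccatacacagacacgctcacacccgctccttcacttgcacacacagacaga
Junb: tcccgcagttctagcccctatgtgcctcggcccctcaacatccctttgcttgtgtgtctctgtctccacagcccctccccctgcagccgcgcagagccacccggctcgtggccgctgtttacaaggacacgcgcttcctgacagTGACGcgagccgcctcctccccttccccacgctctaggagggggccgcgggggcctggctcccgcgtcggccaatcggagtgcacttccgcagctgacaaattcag

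The core began 7 bases before the start in Atf3, 129 and 66 bases before it in Fos, 60 in Fosb and 106 in Junb. Egr4 held it at 177 and 109 bases, both on the other strand. Nr4a3 held 4 copies, at 231, 213, 205 and 147 bases. Of the 11 genes higher at 1 hr, 10 had a window and 7 of these held TGACG on either strand, the seventh being Lrrc17. Over all genes, 17.86% of 27025 first windows held it, and 27.36% of the 9775 windows of genes tested here. None of the windows printed above holds the full element TGACGTCA, which 2.9% of the windows of genes tested hold. The motif was chosen after the expression values were known, and a match is a description of the letters.

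At 1 hr, 11 genes were higher than at 0 hr and none was lower, and 7 of the 11 were IEG transcription factors. They were the AP-1 genes Fos, Fosb, Fosl2 and Junb, the stress-responsive ATF gene Atf3, the zinc finger gene Egr4 and the orphan nuclear receptor gene Nr4a3. The other 4 were Sgk1, a kinase gene controlled by glucocorticoids, Gm13889, Lrrc17, which encodes a secreted leucine-rich repeat protein, and Mag, which encodes a glycoprotein of myelin. A gene was called at a Benjamini-Hochberg adjusted p under 0.05 over all genes tested and a fold change over 1.2 (edgeR quasi-likelihood F test). The 11 genes are 0.0884% of the 12444 tested, and 720 genes (5.79%) had an unadjusted p under 0.05. DESeq2 called 10.

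Fos was at 9.6 and 7.0 CPM in the 0 hr mice and at 37.7, 33.6, 40.2 and 26.0 CPM at 1 hr. It was at 20.4, 18.1, 25.7 and 22.5 CPM at 2 hr and at 18.2, 10.3, 12.6 and 6.1 CPM at 4 hr. The 1 hr and 2 hr mice all lay above the 0 hr mice, and the 4 hr mice overlapped them. The change at 1 hr was a log2 fold change (log2FC) of 2.06 (SE 0.25, adjusted p = 5.90e-06). Fos was called under all 13 alternative settings and with each of the 14 mice left out in turn. Its log2FC was 2.31 within run 0006 and 1.41 within the other run. These within-run values, here and for the genes that follow, are not independent, since the 1 mouse of 0 hr in the other run is also 1 of the 2 in run 0006.

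Fosb, the gene of FosB and ΔFosB, was at 20.7 and 19.1 CPM at 0 hr and at 52.7, 40.6, 59.9 and 42.8 CPM at 1 hr. It was still at 36.9, 41.5, 34.2 and 40.3 CPM at 2 hr, and at 33.6, 25.0, 27.6 and 18.4 CPM at 4 hr. Every mouse at 1 and 2 hr exceeded both 0 hr mice, and 1 of the 4 hr mice fell below them. The log2FC at 1 hr was 1.34 (SE 0.18, adjusted p = 4.04e-05), with 1.39 within run 0006 and 1.25 within the other run, and was called under every alternative and without any single mouse.

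Egr4 gave the tightest 1 hr group of these genes, at 113.2, 107.8, 111.5 and 108.1 CPM against 49.3 and 44.7 CPM at 0 hr. By 2 hr it was at 68.9, 70.7, 50.8 and 53.9 CPM, and at 4 hr at 62.4, 38.8, 54.3 and 43.4 CPM. The 1 hr mice stood far above all other mice, which overlapped at 0 and 4 hr. Its log2FC was 1.2 (SE 0.15, adjusted p = 6.01e-06), 1.24 within run 0006 and 1.14 within the other run, and it too was called under every alternative and every mouse left out.

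Atf3 changed most in relative terms and was the least abundant of the 11. It had 7 and 3 reads in the 0 hr mice (0.68 and 0.84 CPM) and 40, 25, 26 and 20 reads at 1 hr (10.9, 12.5, 7.7 and 10.2 CPM). The 2 hr mice were at 1.5, 2.9, 5.2 and 2.5 CPM and the 4 hr mice at 2.6, 2.6, 0.47 and 0.94 CPM. The groups at 0 and 1 hr were far apart, and the 4 hr mice lay on either side of the 0 hr values. The log2FC at 1 hr was 3.82 (SE 0.58, adjusted p = 2.49e-04), with a wide 95% interval of 2.65 to 4.99. The call was lost in 1 setting, without replicate 1 of the 0 hr group (log2FC 3.71, adjusted p = 0.109).

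Junb was at 150.3 and 182.6 CPM at 0 hr and at 301.3, 244.3, 248.2 and 309.1 CPM at 1 hr (log2FC 0.78, SE 0.12, adjusted p = 4.36e-04). At 2 hr it was at 162.5, 168.3, 216.9 and 189.2 CPM, and at 4 hr at 183.1, 148.6, 169.5 and 127.3 CPM. Only the 1 hr group stood apart from the 0 hr mice. The call held under all 13 alternatives and was lost without 0 hr replicate 1 (adjusted p = 0.121). Junb overlaps Prdx2 on the opposite strand in GENCODE M21, and whether the counting used strand is not given in the sources used here, so reads of the pair may be mixed.

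Fosl2, a slower AP-1 member, was at 33.0 and 28.7 CPM at 0 hr and at 63.0, 52.7, 64.7 and 49.5 CPM at 1 hr (log2FC 0.95, SE 0.18, adjusted p = 0.0117). Nr4a3 was at 41.9 and 37.7 CPM at 0 hr, and at 81.2, 77.7 and 77.8 CPM in 3 of the 1 hr mice but 41.3 CPM in replicate 4 (log2FC 0.86, SE 0.18, adjusted p = 0.0440). The 2 hr mice lay close together for Nr4a3, at 61.1, 60.8, 63.2 and 60.0 CPM. Nr4a3 groups at 0 and 1 hr overlapped through that 1 mouse, whereas those of Fosl2 did not. Fosl2 kept its call under 10 of 13 alternatives and 10 of 14 mice left out, and Nr4a3 under 9 and 7.

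Sgk1, which glucocorticoids and neuronal activity raise, was at 63.8 and 82.4 CPM at 0 hr and at 130.6, 112.4, 134.1 and 81.6 CPM at 1 hr (log2FC 0.75, SE 0.14, adjusted p = 0.0117). Replicate 4 at 1 hr lay just below the higher 0 hr mouse, so the groups overlapped. At 2 hr it was at 67.4, 67.2, 58.3 and 93.9 CPM, and at 4 hr at 61.5, 62.4, 57.1 and 48.1 CPM, which is below both 0 hr mice throughout. The call at 1 hr held under 10 of 13 alternatives and 11 of 14 mice left out. It was lost without 0 hr replicate 1 (log2FC 0.62), 1 hr replicate 1 or 1 hr replicate 3. The fifth of its 6 RefSeq starts has a match to the glucocorticoid response element consensus 188 bases upstream, at chr10:21993640-21993889 on the plus strand. That window is shown with the match in capitals, because the other 5 windows hold no such match.
Sgk1: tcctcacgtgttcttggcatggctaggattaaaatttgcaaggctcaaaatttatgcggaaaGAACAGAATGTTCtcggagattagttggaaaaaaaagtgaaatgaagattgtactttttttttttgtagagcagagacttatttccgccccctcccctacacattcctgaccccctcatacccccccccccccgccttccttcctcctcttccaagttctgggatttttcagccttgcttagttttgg
A match was found in 0.39% of the 32851 windows of all genes, a rate per window and not per gene searched in 6 windows, and 3′ counts do not tell the starts of Sgk1 apart.

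Gm13889 moved by less but with little spread, from 112.0 and 104.4 CPM at 0 hr to 165.6, 145.0, 156.2 and 172.9 CPM at 1 hr (log2FC 0.57, SE 0.11, adjusted p = 0.0117). Its call held under 9 of 13 alternatives and 11 of 14 mice left out. It overlaps Gm27027 on the same strand, which makes its reads uncertain. Lrrc17 was at 40.1 CPM in 0 hr replicate 1 and 106.1 CPM in replicate 2, and at 127.3, 120.9, 141.0 and 108.7 CPM at 1 hr (log2FC 0.97, SE 0.20, adjusted p = 0.0260). The call for Lrrc17 rested on replicate 1 of the 0 hr group: without it the log2FC was 0.37 (adjusted p = 1.00), and DESeq2 did not call it (adjusted p = 0.835). Lrrc17 lies within Fbxl13 on the opposite strand.

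Of the 11 genes, 9 had 1 hr mice that all lay above both 0 hr mice, the exceptions being Nr4a3 and Sgk1. With 2 mice at 0 hr such separation in either direction is common, and 14.2% of all genes tested showed it. The number of called genes depended on the mice. It was 5 without replicate 1 of the 0 hr group, 167 without replicate 2 (147 higher and 20 lower), which left the summed mouse alone at 0 hr, 5 without 1 hr replicate 1 and 6 without 1 hr replicate 3. The alternative without the run term called 5.

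**Figure D1:**
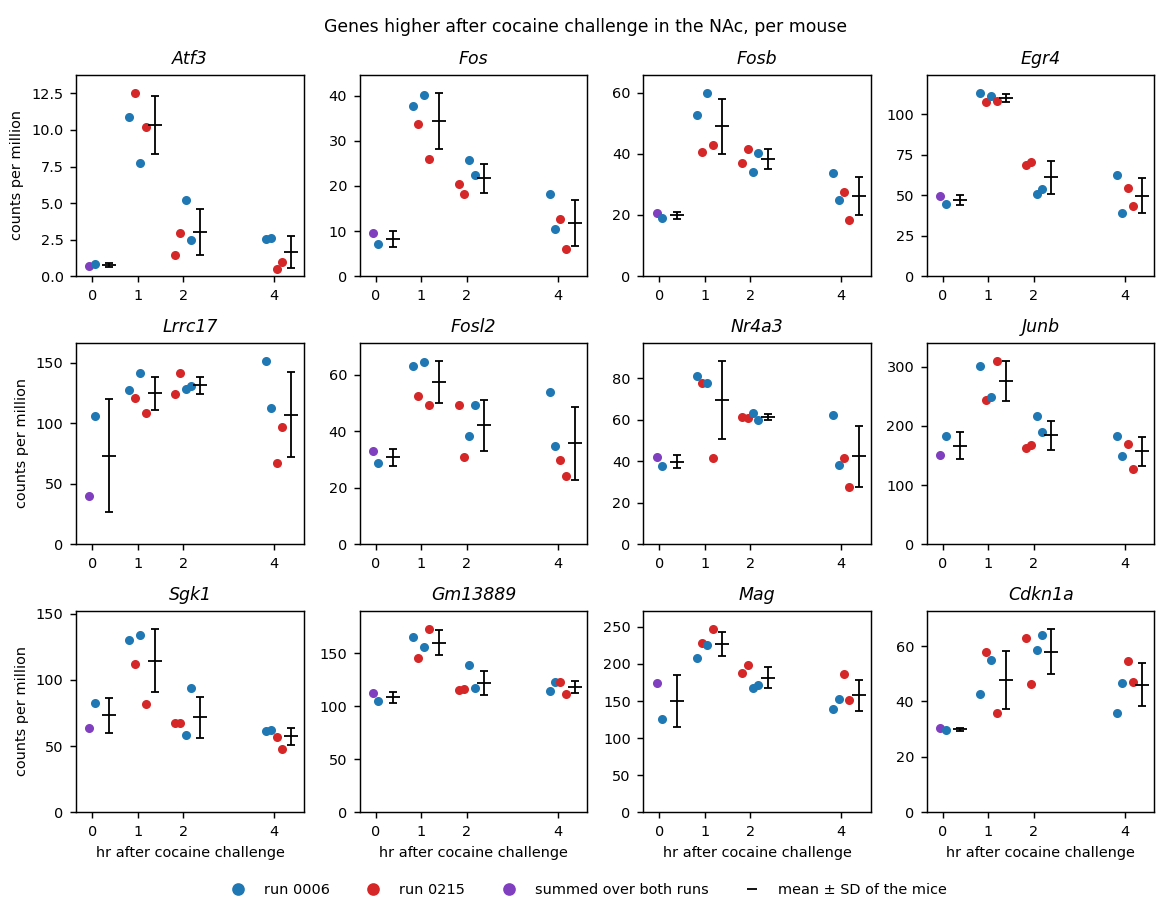
Level of the 11 genes higher at 1 hr, and of Cdkn1a, in each of the 14 mice (y axes, CPM, from 0) against hr after the cocaine challenge (x axes). Points are mice, colored by sequencing run, and bars are the mean and SD of each group. Fos, Fosb, Egr4 and Junb have 1 hr mice above both 0 hr mice and lower values at 4 hr, and Lrrc17 has 1 low mouse at 0 hr.

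At 2 hr, 4 genes were higher than at 0 hr and none lower (0.0321% of the 12444 tested, 871 genes or 7% at an unadjusted p under 0.05, 3 called by DESeq2). Fos (log2FC 1.39, SE 0.25, adjusted p = 0.0208), Fosb (0.96, SE 0.19, adjusted p = 0.0256) and Lrrc17 (1.04, SE 0.20, adjusted p = 0.0256) were among the genes called at 1 hr. Lrrc17 at 2 hr again rested on replicate 1 of the 0 hr group, with a log2FC of 0.44 without that mouse. DESeq2 did not call Lrrc17 (adjusted p = 0.618). The 2 hr call of Fos held under 9 of 13 alternatives and 12 of 14 mice left out, that of Fosb under 7 and 9, and that of Lrrc17 under 7 and 10. The fourth was Cdkn1a, the gene of the cyclin-dependent kinase inhibitor p21.

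Cdkn1a was at 30.4 and 29.5 CPM at 0 hr, and at 42.6, 57.7, 55.1 and 35.7 CPM at 1 hr. It was at 63.1, 46.2, 58.6 and 64.1 CPM at 2 hr (log2FC 0.96, SE 0.18, adjusted p = 0.0208) and at 35.8, 46.6, 54.8 and 47.1 CPM at 4 hr. All 12 mice after cocaine were above both 0 hr mice, and the 2 hr mice were the highest as a group. The call at 2 hr held under 9 of 13 alternatives and 11 of 14 mice left out. It was lost without 0 hr replicate 1, 2 hr replicate 1 or 2 hr replicate 4. The differences at 1 hr (0.67, adjusted p = 0.327) and 4 hr (0.60, adjusted p = 0.997) did not pass the test.

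All 4 genes called at 2 hr had groups that did not overlap, as did 13.9% of all genes. The number of genes called at 2 hr varied widely between settings. There were 0 called genes without 0 hr replicate 1 or 2 hr replicate 1, 2 without 1 hr replicate 4, 2 hr replicate 2 or 2 hr replicate 4, 8 without 2 hr replicate 3 (6 higher and 2 lower), and 201 without 0 hr replicate 2 (149 higher and 52 lower). None was called without the run term or after thinning all mice to the smallest total, whereas 28 were called with the replicate block, 29 without the filter on low counts and 376 in the run other than 0006 alone, which has 1 mouse at 0 hr.

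At 4 hr no gene was called against 0 hr (0% of 12444, edgeR), DESeq2 called 0 as well, and 570 genes (4.58%) had an unadjusted p under 0.05. The lowest adjusted p was 0.997. Fos was at a log2FC of 0.53 (95% interval -0.01 to 1.06), Fosb at 0.43 (0.05 to 0.82), Egr4 at 0.05 (-0.26 to 0.36) and Junb at -0.03 (-0.28 to 0.22). Leaving out 0 hr replicate 2 gave 81 genes (59 higher and 22 lower), and leaving out 4 hr replicate 1 gave 1, which was lower.

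The 1 hr and 4 hr mice were also compared with each other, since this comparison uses none of the 2 home cage mice and both groups have 4 mice, 2 of each run. At 1 hr, 15 genes were higher (0.121% of those tested) and 1 was lower (0.00804%), with 774 genes (6.22%) at an unadjusted p under 0.05. The 16 are 0.129% of the genes, and DESeq2 called 15. The largest differences were those of Atf3 (log2FC 2.54, SE 0.45, adjusted p = 0.00228), Fos (1.53, SE 0.21, adjusted p = 2.66e-05), Egr2 (1.44, SE 0.25, adjusted p = 0.00184), Egr4 (1.15, SE 0.13, adjusted p = 4.28e-07) and Sgk1 (1.00, SE 0.12, adjusted p = 3.96e-06). The comparisons against 0 hr and against 4 hr share the 1 hr mice.

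Egr2, a zinc finger IEG, was at 19.8, 18.1, 17.9 and 15.3 CPM at 1 hr and at 6.7, 7.5, 7.0 and 4.7 CPM at 4 hr. The 0 hr mice had 7.3 and 9.6 CPM and the 2 hr mice 6.8, 9.4, 10.1 and 8.5 CPM. All 1 hr mice were above every other mouse, and the other 3 groups overlapped. Against the 2 mice of 0 hr its log2FC was 1.17 (SE 0.28, adjusted p = 0.121), which did not pass the test, although the interval of 0.61 to 1.73 lay above 0.

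The IEG transcription factor genes Fosb (0.91), Junb (0.81), Nr4a3 (0.72) and Nr4a1 (0.66) and the genes Dusp1 (0.86), a MAP kinase phosphatase, Gm13889 (0.44) and Mag (0.53) were also higher at 1 hr than at 4 hr, in log2FC. Of these, the call of Nr4a3 was the least stable, held under 7 of 13 alternatives and 5 of 14 mice left out and lost with RLE scaling and with a filter of 10 counts, and its groups overlapped. With mice left out, the call held in 8 of 14 cases for Gm13889, 9 for Dusp1 and 10 for Nr4a1. Nr4a1 was at 123.0, 115.4, 108.8 and 117.8 CPM at 1 hr and at 88.0, 59.8, 89.9 and 56.1 CPM at 4 hr. Dusp1 was at 33.7, 27.1, 38.4 and 43.4 CPM at 1 hr and at 21.4, 18.7, 21.1 and 17.4 CPM at 4 hr, and it overlaps Ergic1 on the opposite strand. Neither Nr4a1 nor Dusp1 had overlapping groups, as was so for 13 of the 16 called genes and 2.88% of all genes.

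Eml5, which encodes a microtubule-associated protein, was the 1 gene that was lower at 1 hr than at 4 hr. It was at 35, 36.6, 36.1 and 28.1 CPM at 1 hr and at 44.2, 58.3, 62.7 and 53.3 CPM at 4 hr (log2FC -0.67, SE 0.14, adjusted p = 0.0275). The 0 hr mice, at 37.3 and 38 CPM, lay near the 1 hr mice, and the 4 hr difference from them was 0.54 (adjusted p = 0.997). Its call held under 10 of 13 alternatives and 8 of 14 mice left out, and it overlaps Zc3h14 on the opposite strand.

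The calls that held in this comparison under all 13 alternatives and each mouse left out were those of Fos, Egr4, Junb and Sgk1. The number of genes was 29 without 4 hr replicate 1 (23 higher and 6 lower at 1 hr), 8 without 4 hr replicate 2, and 9 without 1 hr replicate 1, 1 hr replicate 3 or 4 hr replicate 4. A comparison of 1 hr with 2 hr, added after the data were seen, called 3 genes (0.0241%), all higher at 1 hr, with 752 (6.04%) at an unadjusted p under 0.05. The groups overlapped for Sgk1 alone, and 2.84% of all genes had groups that did not. They were Egr4 (log2FC 0.88, adjusted p = 2.25e-04), Junb (0.58, adjusted p = 0.00618) and Sgk1 (0.68, adjusted p = 0.0110). Fos (0.67, adjusted p = 0.402) and Fosb (0.38, adjusted p = 0.729) did not pass between 1 and 2 hr. That count was 50 without 1 hr replicate 2 (7 higher and 43 lower at 1 hr), 38 without 2 hr replicate 3 (11 higher and 27 lower), 6 without 4 hr replicate 1 (3 in each direction), and 1 without 1 hr replicate 1, 2 hr replicate 1 or 2 hr replicate 2.

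Gene lists placed these calls within their families. Of 26 listed IEG transcription factors, 24 were tested, and Klf4 and Maff did not pass the filter on low counts. At 1 hr, 7 were called higher and 14 had an unadjusted p under 0.05 and a higher level, beside 3.44% of all genes. The median log2FC of the 24 was 0.42 at 1 hr, 0.34 at 2 hr and 0.14 at 4 hr, beside -0.0015, -0.00014 and 0.0046 over all genes. The highest of the 3 changes was at 1 hr in 15 of the 24 (62.5%, against 32.9% of all genes), at 2 hr in 5 and at 4 hr in 4.

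Other members of the list did not pass the adjusted test at 1 hr, some with estimates as large as those of called genes. Csrnp1, a transcriptional regulator gene, was at 5.9 and 8.2 CPM at 0 hr and at 12.8, 14, 13.7 and 14.8 CPM at 1 hr (log2FC 1.07, adjusted p = 0.507). Egr1 was at 197.3 and 168.3 CPM at 0 hr and at 279.6, 246.3, 282.2 and 189.3 CPM at 1 hr (0.53, adjusted p = 0.327). Npas4, a neuron-specific activity-dependent factor, was at 9.0 CPM in both 0 hr mice and from 11.1 to 23.4 CPM in the 12 mice after cocaine, with its largest log2FC at 4 hr (0.81, adjusted p = 0.997). Jun (0.43), Egr3 (0.42) and Srf (0.27) had positive log2FC at 1 hr that did not pass the test, and Ier2, Ier5, Klf2 and Crem were between -0.33 and 0.05.

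Nr4a2, an orphan nuclear receptor gene, had its largest log2FC at 2 hr (1.19, adjusted p = 0.533). It was at 10.1 and 5.9 CPM at 0 hr, at 12.6, 12.9, 15.3 and 30.4 CPM at 2 hr and at 25.9, 10.6, 5.6 and 7.1 CPM at 4 hr. Its highest mice, replicate 4 at 2 hr and replicate 1 at 4 hr, were also the highest for 8 markers of cortical pyramidal neurons, summed at 1375 and 1348 CPM (all other mice 708 to 1321 CPM), whose part in the result was not tested. Over the 8 markers the median log2FC was 0.08 at 1 hr, 0.64 at 2 hr and 0.37 at 4 hr, with 0 called.

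All 24 genes of the signal feedback and rapid-response list were tested, and Gm13889 was called at 1 hr. Their median log2FC was 0.37 at 1 hr, 0.14 at 2 hr and 0.02 at 4 hr, and 18 of them (75%, against 32.9% of all genes) had their highest change at 1 hr. In all, 12 had an unadjusted p under 0.05 and a higher level at 1 hr, beside 3.44% of all genes. The salt-inducible kinase gene Sik1 (log2FC 1.15, adjusted p = 0.754), the growth arrest genes Gadd45g (0.95, adjusted p = 0.225) and Gadd45b (0.66, adjusted p = 0.675) and the antiproliferative gene Btg2 (0.95, adjusted p = 0.568) were among those that did not pass the adjusted test. Btg2 was at 11.4 and 14.3 CPM at 0 hr and at 19.5, 27.1, 23.5 and 28.1 CPM at 1 hr. By 2 hr it was at 14.1, 7.0, 15.3 and 12 CPM.

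No member of the synaptic and secreted effector list was called at any time, with 19 of 21 tested. Arc, whose protein acts in AMPA receptor endocytosis, came closest, at 56.0 and 81.6 CPM at 0 hr and 135.2, 129.4, 125.5 and 156.6 CPM at 1 hr (log2FC 1.05, SE 0.24, adjusted p = 0.110). All 1 hr mice were above the 0 hr mice, and at 2 hr (81.0, 63.1, 134.8 and 91.7 CPM) and 4 hr (100.8, 48.0, 132.5 and 42.4 CPM) the mice were widely spread. The median log2FC of the list was 0.03 at 1 hr, 0.17 at 2 hr and 0.18 at 4 hr. Bdnf, which encodes a neurotrophin, was at 7.3 and 8.7 CPM at 0 hr and reached 25.7 CPM in 2 hr replicate 4 and 25.0 CPM in 4 hr replicate 1 (log2FC 1.05 at 2 hr, adjusted p = 0.583), the mice with the highest cortical marker sums. Homer1, Vgf and Scg2 were within 0.22 of 0 at every time.

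Among 17 tested genes that glucocorticoids raise, Sgk1 was called at 1 hr and Cdkn1a at 2 hr. The median log2FC was 0.19 at 1 hr, 0.20 at 2 hr and -0.07 at 4 hr. Fkbp5, a chaperone gene of the glucocorticoid receptor, was at 28.4 and 31.8 CPM at 0 hr and at 45.1, 40.3, 35.2 and 40.5 CPM at 2 hr (0.41, adjusted p = 0.597), with no overlap between these groups. Ddit4 (0.43 at 1 hr, adjusted p = 0.754) and Tsc22d3 (0.36 at 2 hr, adjusted p = 0.583) did not pass, and the metallothionein genes Mt1 and Mt2 were within 0.12 of 0 at all times.

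The remaining function lists held 0 called genes in all 5 comparisons between times. They covered circadian clock genes (17 tested), cytosolic (17) and endoplasmic reticulum chaperones (18), dopamine signalling and projection neuron genes (21), the MAP kinase and CREB pathway (24), interneuron and neuropeptide genes (16), ionotropic glutamate and GABA receptor subunits (20) and chromatin regulators (23). For the endoplasmic reticulum chaperones all 18 log2FC at 1 hr were below 0 (median -0.19, 3 with an unadjusted p under 0.05 and a lower level, beside 2.35% of all genes), and the median was -0.05 at 4 hr. For the dopamine signalling and projection neuron genes all 21 log2FC of 1 hr against 2 hr were above 0 (median 0.20, 11 with an unadjusted p under 0.05, beside 2.85% of all genes). Their median was 0.06 at 1 hr and -0.12 at 2 hr against 0 hr. The 8 cortical pyramidal markers went the other way for 1 hr against 2 hr, with a median of -0.70 and 6 lower at an unadjusted p under 0.05 (beside 3.19% of all genes), and their part in this was not tested. Hspa5, the gene of the chaperone BiP, was at 687.5 CPM in 0 hr replicate 1 and 358.5 CPM in replicate 2, on either side of all 1 hr mice (390.2 to 463.5 CPM), and at 746.1 CPM in 4 hr replicate 1.

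**Figure D2:**
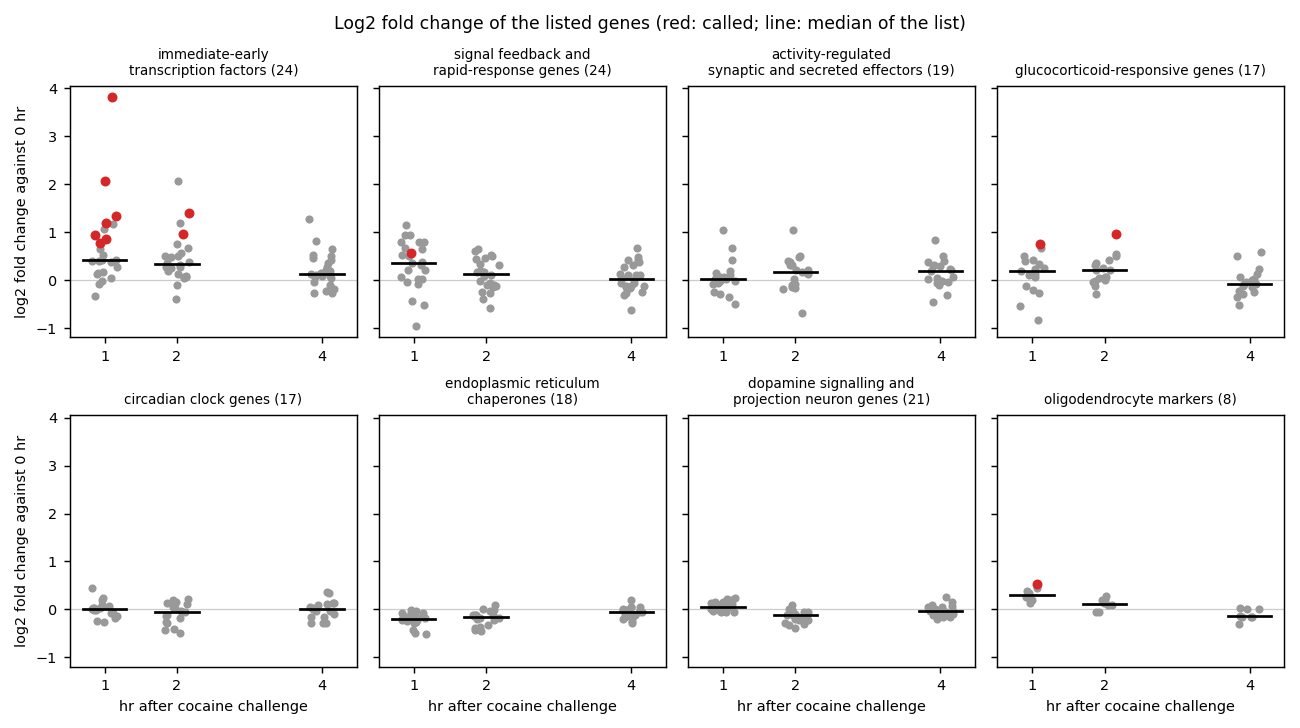
Log2 fold change against 0 hr (y axes) at 1, 2 and 4 hr after the challenge (x axes) for the tested genes of 8 lists, their number in brackets. Each point is a gene, red where it passed the test, and the line is the median of the list. The IEG transcription factors have a median of 0.42 at 1 hr and 0.14 at 4 hr, and the oligodendrocyte markers 0.30 and -0.14.

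The oligodendrocyte marker genes Mag and Mbp were higher at 1 hr than at 4 hr, and the other 6 of the 8 listed did not pass the test. Mag was at 174.6 and 125.2 CPM at 0 hr and at 208.5, 228.2, 225.3 and 247.4 CPM at 1 hr (log2FC 0.53, SE 0.11, adjusted p = 0.0245), and at 139.6, 152.9, 186.8 and 150.8 CPM at 4 hr. The 1 hr mice lay above every 0 hr and 4 hr mouse. Against 0 hr the call held under 6 of 13 alternatives and 10 of 14 mice left out. Against 4 hr, the log2FC was 0.53 (SE 0.09, adjusted p = 0.00184), and the call held with each mouse left out and under 9 of 13 alternatives.

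Mbp, the gene of myelin basic protein, was at 2820.2, 2438.2, 3252.5 and 2207.8 CPM at 1 hr and at 2196.3, 1746.4, 2325.3 and 1658.1 CPM at 4 hr (log2FC 0.43, SE 0.09, adjusted p = 0.0399). The groups overlapped, DESeq2 did not call it, and the call held under 7 of 13 alternatives and 8 of 14 mice left out, with a log2FC as low as 0.22. All 8 oligodendrocyte markers had positive log2FC at 1 hr against 0 hr (median 0.30, 6 with an unadjusted p under 0.05, beside 3.44% of all genes) and against 4 hr (median 0.42, 8 with an unadjusted p under 0.05, beside 3.14% of all genes). Against 4 hr, Cnp was at 0.35 (adjusted p = 0.0607), Cldn11 at 0.41 (adjusted p = 0.0806) and Mog at 0.50 (adjusted p = 0.136). Trf, the gene of transferrin, which oligodendrocytes make, was also higher at 1 hr than at 4 hr (0.54, adjusted p = 0.00675), was named after its values were seen, and is overlapped by Gm20425 on the same strand.

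The summed level of the 8 markers was 4069 to 5250 CPM at 0 hr, 4972 to 6752 at 1 hr, 4494 to 5512 at 2 hr and 3791 to 5024 at 4 hr. The 1 hr mice thus overlapped the 0 hr and the 4 hr mice in this sum. The 8 astrocyte markers had a median log2FC of -0.05 at 1 hr and 0 called, and the 9 projection neuron markers 0.07 and 0 called. At 2 hr against 0 hr the projection neuron markers were all below 0 (median -0.16, 0 called, 2 lower at an unadjusted p under 0.05, beside 2.97% of all genes). The 8 cortical pyramidal markers were all above 0 at that time (5 higher at an unadjusted p under 0.05, beside 4.03%), and the part of either list in the calls at 2 hr was not tested. Of 9 blood cell markers 4 hemoglobin genes were tested, with a median of 0.68 at 1 hr. All 4 were higher at an unadjusted p under 0.05, beside 3.44% of all genes. They include near-identical copies that may share reads, so they are not 4 independent members. Their sum was 383 and 438 CPM at 0 hr against 455, 1435, 510 and 619 CPM at 1 hr, where replicate 2 stood far above the others. Choroid plexus and ependymal markers, 6 of 10 tested, were at 45.8 to 71.7 CPM in the mice of run 0006 alone and 156 to 192 CPM in those of the other run. The part of the tissue taken in these results was not tested.

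**Figure D3:**
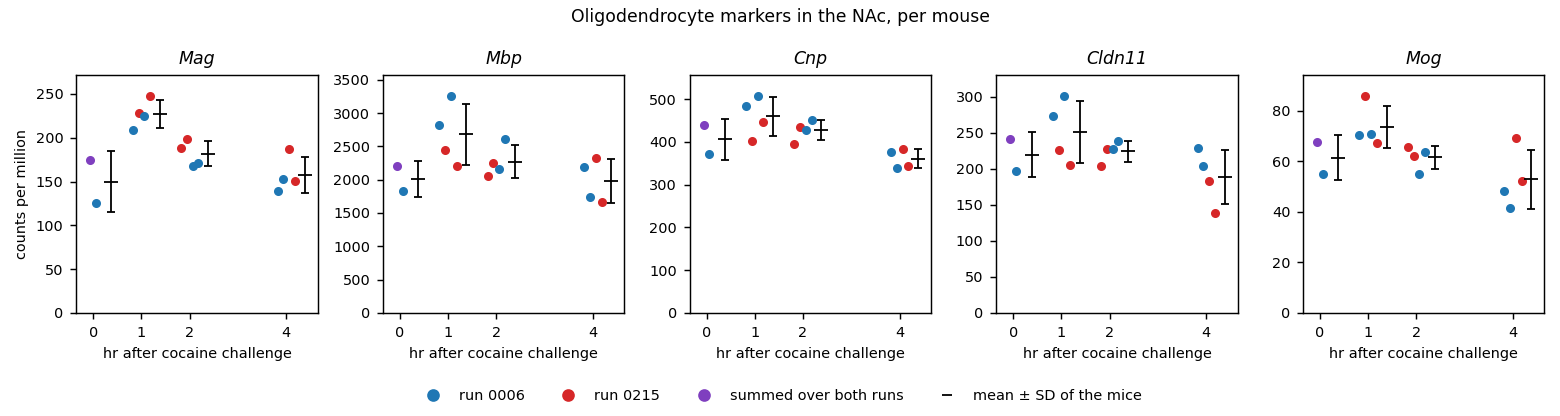
Level of 5 oligodendrocyte markers (Mag, Mbp, Cnp, Cldn11 and Mog) in each mouse (y axes, CPM, from 0) against hr after the cocaine challenge (x axes), with points colored by run and bars for the mean and SD. Mag at 1 hr (208.5 to 247.4) is above all 0 hr and 4 hr mice, whereas the 1 hr mice overlap the 0 hr and 4 hr mice for Cldn11.

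The 1 hr response was set beside those of acute cocaine, whose 0 hr mice were drug-naive, and of repeated cocaine, whose 0 hr mice were taken after the fourth dose. These NAc groups had 14 and 8 mice, and each experience came from a run of its own. The difference between experiences was therefore tested as a difference of responses in 1 model of all 36 mice, over 12962 genes. Its run term covered the challenge runs only, and any run effect on the response itself cannot be told apart from the experience. No gene differed between the challenge and the acute response (0%, edgeR, with 815 genes or 6.29% at an unadjusted p under 0.05 and 0 by DESeq2), or between challenge and repeated cocaine (0%, with 694 or 5.35% and 0). Without 0 hr replicate 2 of the challenge these counts were 184 and 43.

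The 11 genes were chosen by their challenge response, so their size there is a description. Of these, 7 were called at 1 hr in the acute mice, where 0.108% of all genes were, and 3 in the repeated mice (0.054% of all genes). Egr4 was at a log2FC of 1.2 after the challenge, 1.08 after acute and 1.04 after repeated cocaine, with differences of 0.11 (95% interval -0.30 to 0.52) and 0.16 (-0.33 to 0.65). Junb was at 0.78, 0.90 and 1.17, with differences of -0.12 (-0.46 to 0.23) and -0.39 (-0.80 to 0.02). Fosb was at 1.33, 1.14 and 1.71.

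Atf3 and Fos had the highest estimates after the challenge. Atf3 was at 3.82, 1.65 and 1.44, with a difference from acute of 2.17 (95% interval 0.40 to 3.93, adjusted p = 0.652), and Fos at 2.06, 1.16 and 1.38, with a difference of 0.90 (0.19 to 1.60, adjusted p = 0.652). Nr4a3 was lower after the challenge, at 0.85 against 1.49 after acute cocaine (difference -0.63, -1.13 to -0.13, adjusted p = 0.652). From repeated cocaine, Atf3 differed by 2.38 (-0.01 to 4.77), Fos by 0.67 (-0.18 to 1.53) and Nr4a3 by -0.20 (-0.81 to 0.40), intervals that include 0. None of these differences passed the test. The lowest adjusted p of all genes in both contrasts was that of Lrrc17 (0.328 and 0.573), at 0.98 after the challenge, -0.24 after acute and -0.23 after repeated cocaine, a difference that includes its low 0 hr mouse. Mag was at 0.53, 0.13 and -0.01, with differences of 0.39 (0.11 to 0.68, adjusted p = 0.620) and 0.54 (0.20 to 0.88, adjusted p = 0.899).

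**Figure D4:**
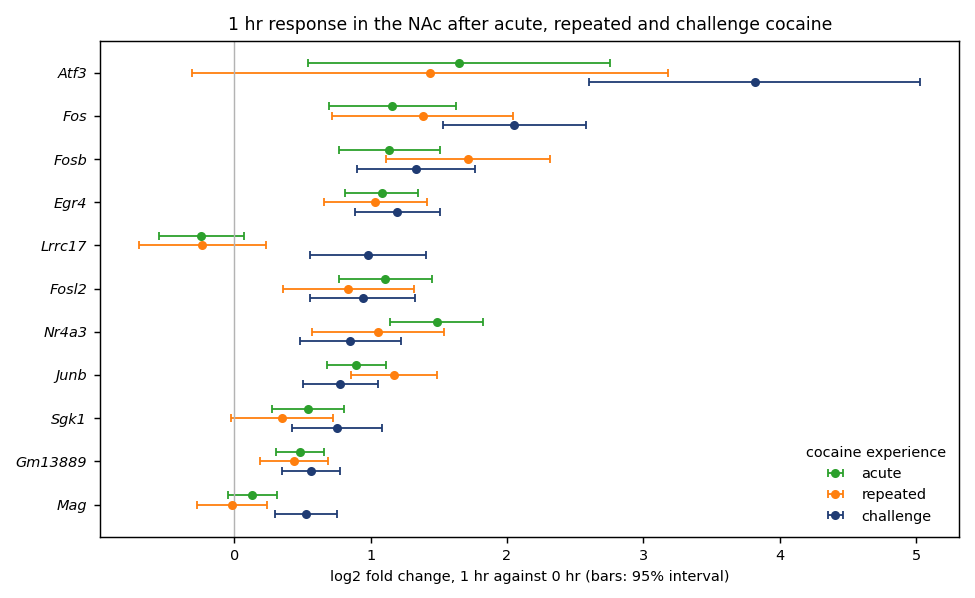
Log2 fold change at 1 hr against 0 hr (x axis, points, with 95% intervals as bars) for the 11 genes higher after the challenge (y axis), in the NAc after acute, repeated and challenge cocaine. The intervals of Egr4, Fosl2 and Gm13889 lie side by side in the 3 experiences, and Lrrc17 is near -0.24 after acute and repeated cocaine and at 0.98 after the challenge.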

How the data were processed

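Bulk NAc 3′-RNA-seq libraries of the challenge experience were analysed. The deposited values are whole-number counts per gene. To make them, the authors removed PCR duplicates by molecular identifiers, mapped reads to GRCm38 (STAR) and assigned them to genes (HTSeq), per the submitters' processing notes and the study's methods. Versions, annotation and strandedness are not given in the sources used here. The 2 libraries of 1 mouse were summed, and the run entered each fit as the share of counts from the run other than 0006. Genes were filtered on low counts, scaled by TMM and tested with edgeR 4.0.16 (quasi-likelihood, R 4.3.3), and a gene was called at a Benjamini-Hochberg adjusted p under 0.05 and a fold over 1.2. DESeq2 1.42.0, other filters, scalings, run codings, single runs, thinning and mice left out in turn were alternatives. The scripts were tested on simulated data. Tables were made with pandas 2.3.3 and numpy 2.4.6 and figures with matplotlib 3.10.9 in Python 3.11.15. Replicates are those of the labels, so p-values measure the spread between these samples. Named genes are the 10 called genes with the largest change in each direction against 0 hr, the 5 largest of 1 hr against 4 hr, the 3 largest differences between experiences where called, and members of the lists. The libraries were picked by their labels, but this experiment and the gene lists were selected for description with earlier results of these data known. Positions are from GENCODE M21, matched by symbol for 19225 of 19363 genes, and promoter windows from RefSeq. Some results are not reported here.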

Additional observations from a re-analysis of the deposited data

Results flagged for a closer look

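In 90 groups of 4 mice examined, 4 held a mouse whose distance from the nearest other mouse took up most of the range of the group (over Dixon's 95% critical value), and chance alone gives about 1 in 20 groups. Nr4a3 was at 41.32 CPM in replicate 4 at 1 hr, against 77.7 to 81.2 CPM in the other mice of that group. Gm13889 was at 138.4 CPM in replicate 3 at 2 hr, against 115 to 116.7 CPM in the others. Eml5 was at 38.44 CPM in the same mouse, against 29.1 to 30.4 CPM. The summed blood cell markers were at 1435 CPM in replicate 2 at 1 hr, against 454.7 to 619.3 CPM, and their part in the results at 1 hr was not tested.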

How the results depend on the processing

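Scaling by RLE, DESeq2, a filter of 10 counts and a fold over 1.5 left each count of called genes within 1.5 times its value. Of 918 values of called genes under the alternatives, 729 kept their call, 189 lost it and 0 changed direction. Without the filter on low counts, 23, 29 and 2 genes were called at 1, 2 and 4 hr against 0 hr, 44 for 1 hr against 4 hr (31 higher and 13 lower at 1 hr), 58 for 1 hr against 2 hr (13 higher and 45 lower), and 9 and 6 for the difference from acute and repeated cocaine. Without the run term the counts were 5, 0, 7 and 1 for 1 hr and 2 hr against 0 hr and 1 hr against 4 hr and 2 hr. With run 0006 only they were 2 for 2 hr against 0 hr, 8 for 1 hr against 4 hr and 1 for 1 hr against 2 hr. The other run alone, with 1 mouse at 0 hr, gave 281, 376 and 195 genes at 1, 2 and 4 hr (47, 92 and 59 of them lower) and 5 for 1 hr against 4 hr. At 2 hr, 0 genes were called after thinning, 2 with 0 hr replicate 1 from run 0006 alone and 0 with it from the other run alone. The cause of these changes was not tested.

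With each mouse left out in turn, the counts ran from 5 to 167 at 1 hr, 0 to 201 at 2 hr and 0 to 81 at 4 hr. They ran from 8 to 29 for 1 hr against 4 hr, 1 to 50 for 1 hr against 2 hr, 0 to 184 for the difference from acute and 0 to 43 from repeated cocaine. Where 1 mouse remained at 0 hr it was assumed to vary like the other groups.

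The replicate block gave 28 genes at 2 hr (26 higher and 2 lower), 26 for 1 hr against 4 hr (22 and 4) and 11 for 1 hr against 2 hr (4 and 7). By the labels the mice share only a number. Deviations correlated above 0.1 in 3 of 18 same-numbered pairs and in 5 of 54 pairs of different numbers. After removing run these were 6 of 18 and 13 of 54, with medians of 0.063 and -0.040. The 3 pairs each shared a run and the 6 pairs each came from different runs, so these figures cannot tell the number from the run.

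Thinning to the smallest mouse left 8 genes called at 1 hr, Fosl2, Mag and Sgk1 being lost and Atf3 kept. With 2 mice at 0 hr, comparisons with that group rest on few animals.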
